A study of Arabidopsis thaliana with 16 samples.

Results

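UV-C exposure of Arabidopsis thaliana seedlings was compared with its own mock exposure over every locus assembled from these seedlings. The comparison used 6 of the 16 libraries of the study, 3 from exposed and 3 from mock seedlings, and all 22818 loci of the UV-C assembly. Libraries were chosen by their titles, and a locus was given a TAIR10 gene when the exons of both, on the same strand, overlapped by at least 50% of the length of either. All seedlings were of the wild-type accession Col-0 and were grown in vitro for 15 days. The exposed group received UV-C at 8 kJ/m2. The mock group received no UV-C, and how long after exposure the seedlings were taken is not stated in the labels. Whole seedlings were used, total RNA was depleted of ribosomal RNA, and the libraries keep the strand. The other 10 libraries, from a zeocin experiment with its own mock (200 microg/ml for 3 h), entered only where the responses to both agents were tested against each other.

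UV-C is absorbed directly by DNA and joins neighbouring pyrimidines into dimers, which stall RNA and DNA polymerases until photolyases or excision repair remove them. The same radiation reaches RNA, proteins and the chloroplasts, and it sets off reactive oxygen and calcium signals that UV exposure shares with wounding and with attack by pathogens. In leaves these signals feed a kinase cascade and families of stress transcription factors, while genes for photosynthesis and growth are commonly turned down.

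The mock libraries held 37507136, 32234801 and 32161555 counts, and the UV-C libraries 27973871, 30014943 and 29106322. Levels are given as CPM, the counts of a locus scaled by library size and TMM factor, in the order of replicates 1 to 3. A value after ± is the SD of 3 libraries for a level and the standard error of the fit for a log2 fold change, which is always UV-C over mock. A locus was said to rise or fall when the adjusted p of edgeR's quasi-likelihood test, taken over the 19587 loci tested, was below 0.05. By this rule 33.6% of the loci tested rose and 30.9% fell, so the counts of risen and fallen genes given below are to be read against these shares. The gene lists hold chosen members, picked with earlier results of these data known, and their counts do not describe whole gene families. The labels do not tie replicates to separate cultures, and the p-values therefore rest on a spread among libraries that may be technical. In RNA from whole seedlings, fewer cells of a type and less RNA per cell cannot be told apart.

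Large changes were mostly rises, while the numbers of risen and fallen loci were nearer to each other. A fitted log2 change of 5 or more was reached by 688 loci upward and 11 downward, and 200 loci rose but 1 fell by 8 or more. Where a locus had no mock count, the fitted value runs above the change against a floor of 3 counts over the mock group. MYB108, without a mock count, was fitted at 8.16, and against that floor its log2 change was at least 5.35. Such loci passed the filter through the UV-C libraries alone, and the counts by size were not redone with the floor. The median log2 change of all loci was 0.00, but the scaling in part sets this value and the balance in number. All changes are relative to that scaling, and a change of all RNA together could not be seen. Most of the strongest rises were of genes that were silent or nearly so in mock seedlings. BGLU27 (AT3G60120), a beta glucosidase, had no count in any mock library and 39.9, 32.3 and 31.8 CPM after UV-C. Against a floor of 3 counts over the mock group this is at least 1258-fold higher. AT4G37710, which encodes a VQ motif protein, was also without a count in mock seedlings and reached 22.9, 21.9 and 20.5 CPM, at least 791-fold higher. The AP2/ERF-type transcription factor gene ESE1 (AT3G23220) went from 0 in every mock library to 17.6, 14.6 and 14.3 CPM, at least 562-fold higher. Groups that do not overlap were a condition for naming these genes, so their separation is no result. DIR5 (AT1G64160), a dirigent protein of the family that guides the coupling of phenolic radicals, had 1 count in the mock group and 45.3, 63.0 and 55.3 CPM after UV-C. Its ratio of pooled counts was 5974, with a 95% interval for counting error of 1072 to 235996. GLIP1 (AT5G40990), a secreted lipase with a part in defence, also had 1 mock count and reached 30.7, 26.6 and 26.5 CPM. The cysteine-rich, defensin-like gene LCR67 (AT1G75830) rose from 0.0520, 0 and 0.0837 CPM to 129, 101 and 92.5 CPM.

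The strongest falls were of genes with moderate levels in mock seedlings. AT5G62360, which encodes a protein of the invertase and pectin methylesterase inhibitor family, stood at 41.1, 31.5 and 22.5 CPM in mock seedlings and at 0.303, 0.139 and 0.538 CPM after UV-C. Its log2 change was -6.61 ± 0.40 with an adjusted p of 5.7e-06. RbcX1 (AT4G04330), a chaperone for assembly of the carbon-fixing enzyme Rubisco, fell from 72.2, 66.2 and 54.9 to 1.59, 1.74 and 2.46 CPM. SWEET12 (AT5G23660), a sugar exporter of the phloem, fell from 22.9, 26.8 and 24.8 to 0.871, 0.765 and 0.807 CPM, a log2 change of -4.93 ± 0.13. These genes too were named under the condition that the groups do not overlap. The cold-regulated gene COR413IM1 (AT1G29395), of the chloroplast inner membrane, fell by 5.38 on the log2 scale. AT5G23240 and AT1G30280, both encoding DnaJ-domain proteins, fell by 5.76 and 4.06 on that scale. PHS2 (AT3G46970), the cytosolic glucan phosphorylase of starch-derived sugar use, fell from 323, 308 and 294 to 23.6, 22.8 and 20.97 CPM.

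Promoter letters were read for the 17001 nuclear protein-coding genes tested, over the 250 bases before the annotated start. The W-box, the site of WRKY factors, was searched as TTGACC or TTGACT on both strands. It lay in 28.7% of all these promoters, in 39.9% of those of genes that rose by a log2 change of 1 or more and in 23.3% of those that fell by as much. Of all loci tested, 18.2% rose and 10.1% fell by at least that size. Among genes that rose by 3 or more it lay in 46.8%. The median log2 change was -0.06 for the 12130 genes with no W-box, 0.09 with 1, 0.24 with 2, and 0.65 for the 177 genes with 3 or more. The CGCG box, bound by calmodulin-binding factors and searched as ACGCGT or CCGCGT, lay in 3.83% of all promoters, 7.87% of the rising and 2.48% of the falling ones. The rapid stress response element CGCGTT lay in 2.90%, 5.29% and 1.96%; a CGCG box followed by T holds these letters too. A heat shock element pair, searched as GAANNTTC or TTCNNGAA, which read the same on both strands, lay in 15.9%, 20.3% and 14.4%. The evening element AAAATATCT, a site of clock factors, went the other way, with 2.5999% of all promoters, 2.93% of the rising and 5.59% of the falling ones, and 10.7% of those that fell by 2 or more. Site II, searched as TGGGCC or TGGGCT, lay in 22.6% of all promoters and in fewer of both other groups, 14.3% of the rising and 16.6% of the falling ones. The GCC box GCCGCC lay in 1.89%, 2.29% and 0.865%. A match is a run of letters and not a bound site.

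The 6 promoter stretches here are shown because they belong to genes with large changes and hold a W-box, a heat shock pair, a CGCG box or an evening element. They were read from the RefSeq assembly TAIR10.1, whose nuclear coordinates are those of TAIR10, on the strand of the gene, 5′ to 3′. Capitals mark the motif on either strand, and each stretch runs from 10 bases before the first match to 10 after the last. AT1G06135 (chr1:1862044-1862142, + strand) holds 4 W-boxes, the nearest 51 bases before the start. PROPEP3 (chr5:25939330-25939523, + strand) also holds 4, the nearest 48 bases before it. AT4G37710 (chr4:17717908-17718016, + strand) holds 3 heat shock pairs. OXI1 (chr3:9195114-9195139, + strand) holds 1 CGCG box. AT5G62360 (chr5:25040484-25040512, + strand) and RbcX1 (chr4:2118642-2118670, - strand), both of which fell, hold 1 evening element each, on the reverse strand and 37 and 34 bases before the start.
AT1G06135: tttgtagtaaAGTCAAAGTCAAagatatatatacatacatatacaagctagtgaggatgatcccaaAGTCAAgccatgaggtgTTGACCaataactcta
PROPEP3: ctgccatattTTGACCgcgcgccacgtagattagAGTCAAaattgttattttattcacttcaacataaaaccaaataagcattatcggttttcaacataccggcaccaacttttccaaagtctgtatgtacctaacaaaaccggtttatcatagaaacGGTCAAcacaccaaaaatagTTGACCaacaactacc
AT4G37710: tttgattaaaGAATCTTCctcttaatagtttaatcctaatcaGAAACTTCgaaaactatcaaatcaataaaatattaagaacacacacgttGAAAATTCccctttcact
OXI1: tcgaaggccgCCGCGTcttccaaggc
AT5G62360: ttcacatgttAGATATTTTttcgtttttt
RbcX1: tccatatcctAGATATTTTaatgtgtgaa

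**Figure D1:**
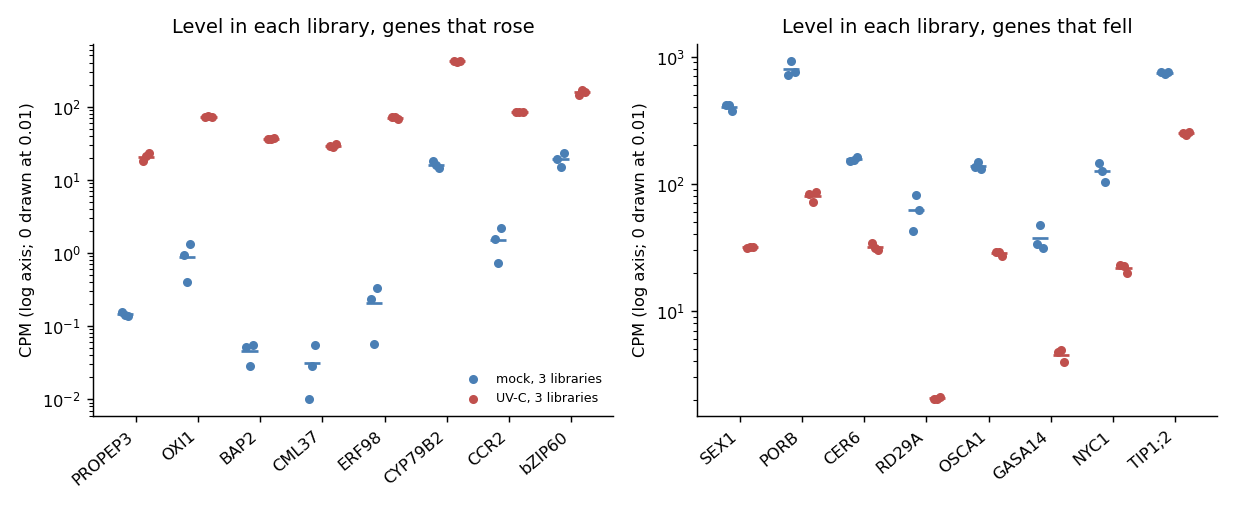
Level of 16 genes in each library, in CPM on log axes; blue points are the 3 mock libraries, red points the 3 UV-C libraries, and lines their means, with 0 drawn at 0.01. For none of these genes did the groups overlap, but they were picked from the named genes, so this separation is no result. CPM do not allow levels to be compared between genes of different length.

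Genes for sensing damage at the cell surface rose in most cases. PROPEP3, the precursor of a peptide released by wounded cells, rose from 0.156, 0.144 and 0.139 CPM to 18.2, 21.2 and 23.05 CPM (log2 7.11 ± 0.18, adjusted p 7.56e-10). The groups were far apart. PEPR2, a receptor of such peptides, rose by 4.90 on the log2 scale. RBOHD (AT5G47910), the NADPH oxidase that makes the apoplastic oxidative burst, rose from 31.5, 31.02 and 46.2 to 208, 188 and 176 CPM (log2 2.40 ± 0.16). OXI1 (AT3G25250, also AGC2-1), a kinase activated by reactive oxygen, rose from 0.936, 0.403 and 1.31 to 71.1, 74.7 and 71.6 CPM. Of 27 receptor kinases, NADPH oxidases and peptide precursors tested, 21 rose and 3 fell, with a median log2 change of 2.098 against 0.00 for all loci. The fallen genes were CRK4 (log2 -2.26 ± 0.41), WAK2 (log2 -1.04 ± 0.11), a wall-associated kinase that binds pectin, and FLS2, the receptor of bacterial flagellin (-0.79). Against zeocin, 14 of these genes responded higher and 2 lower in the test of the interaction, where 23.4% and 23.8% of all 17196 genes tested did so.

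Calcium decoding and the MAP kinase cascade moved in the same direction. CML37 (AT5G42380), a calmodulin-like calcium sensor, had 0, 0.0288 and 0.0558 CPM in mock seedlings and 28.8, 28.1 and 30.5 CPM after UV-C. With 3 counts in the whole mock group, the ratio of pooled counts was 1058 with a 95% interval of 361 to 5132. CML38, of the same family, rose from 5.78, 7.02 and 9.43 to 85.7, 92.1 and 79.1 CPM. OSCA1 (AT4G04340), a channel of the osmotic calcium response, went the other way, from 136, 149 and 131 to 29.03, 28.99 and 27.1 CPM (log2 -2.29 ± 0.08). In all, 21 of 27 calcium sensors, kinases, pumps and channels rose and 3 fell, with a median of 1.46; under upper-quartile scaling 5 fell. Of 17 genes of the MAP kinase cascade 11 rose and 1 fell, with a median of 1.04. MPK11 rose from 0.754, 0.403 and 1.06 to 33.01, 38.9 and 38.6 CPM, and MKK4, which phosphorylates MPK3 and MPK6, from 6.19, 5.58 and 8.48 to 36.9, 44.3 and 41.3 CPM. MPK3 itself rose by 1.14 ± 0.12, while MPK6 had 25.7 ± 0.391 CPM in mock and 25.01 ± 0.758 CPM in UV-C seedlings (adjusted p 0.634). The fallen gene was the phosphatase gene MKP2 (log2 -0.39 ± 0.15, adjusted p 0.0377), and its adjusted p ranged from 0.0552 to 0.136 in the alternatives that lost the call.

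Stress transcription factors carried some of the highest rises. ERF98 (AT3G23230) rose from 0.234, 0.0575 and 0.335 to 72.7, 71.2 and 67.0 CPM, and its neighbour ERF1 (AT3G23240), which joins ethylene and jasmonate signals, from 0.104, 0.0288 and 0.139 to 15.0, 10.2 and 12.4 CPM. Both had a higher response to UV-C than to zeocin (interaction log2 6.47 and 6.04, adjusted p 1.1e-06 and 5.7e-07). MYB15 (AT3G23250), an activator of lignin genes in defence, followed in the same stretch of chromosome 3, at 0.572, 0.460 and 0.697 CPM in mock and 99.7, 86.6 and 90.0 CPM in UV-C libraries. Of 21 chosen AP2/ERF genes 16 rose and 3 fell (median 2.26), and of 22 chosen NAC genes 19 rose and 1 fell (1.84). Of 17 chosen zinc finger and MYB stress factors 11 rose and 5 fell (2.6998). The choice of members was made with earlier results of these data known, so these counts are not results about the families. NAC019 rose from 0.130, 0.403 and 0.335 to 19.6, 20.7 and 16.1 CPM. The listed NAC gene that fell was NAC072, also RD26, a factor of abscisic acid and drought responses. It stood at 10.03 ± 0.523 CPM in mock and 6.79 ± 0.246 CPM after UV-C. Among the zinc finger genes the tandem CCCH members TZF2 and TZF3 fell by 2.09 and 2.21 on the log2 scale, whereas ZAT7 rose by 6.18 and ZAT6 by 3.17. ANT, a growth factor of young organs, fell by 1.01 ± 0.25.

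**Figure D2:**
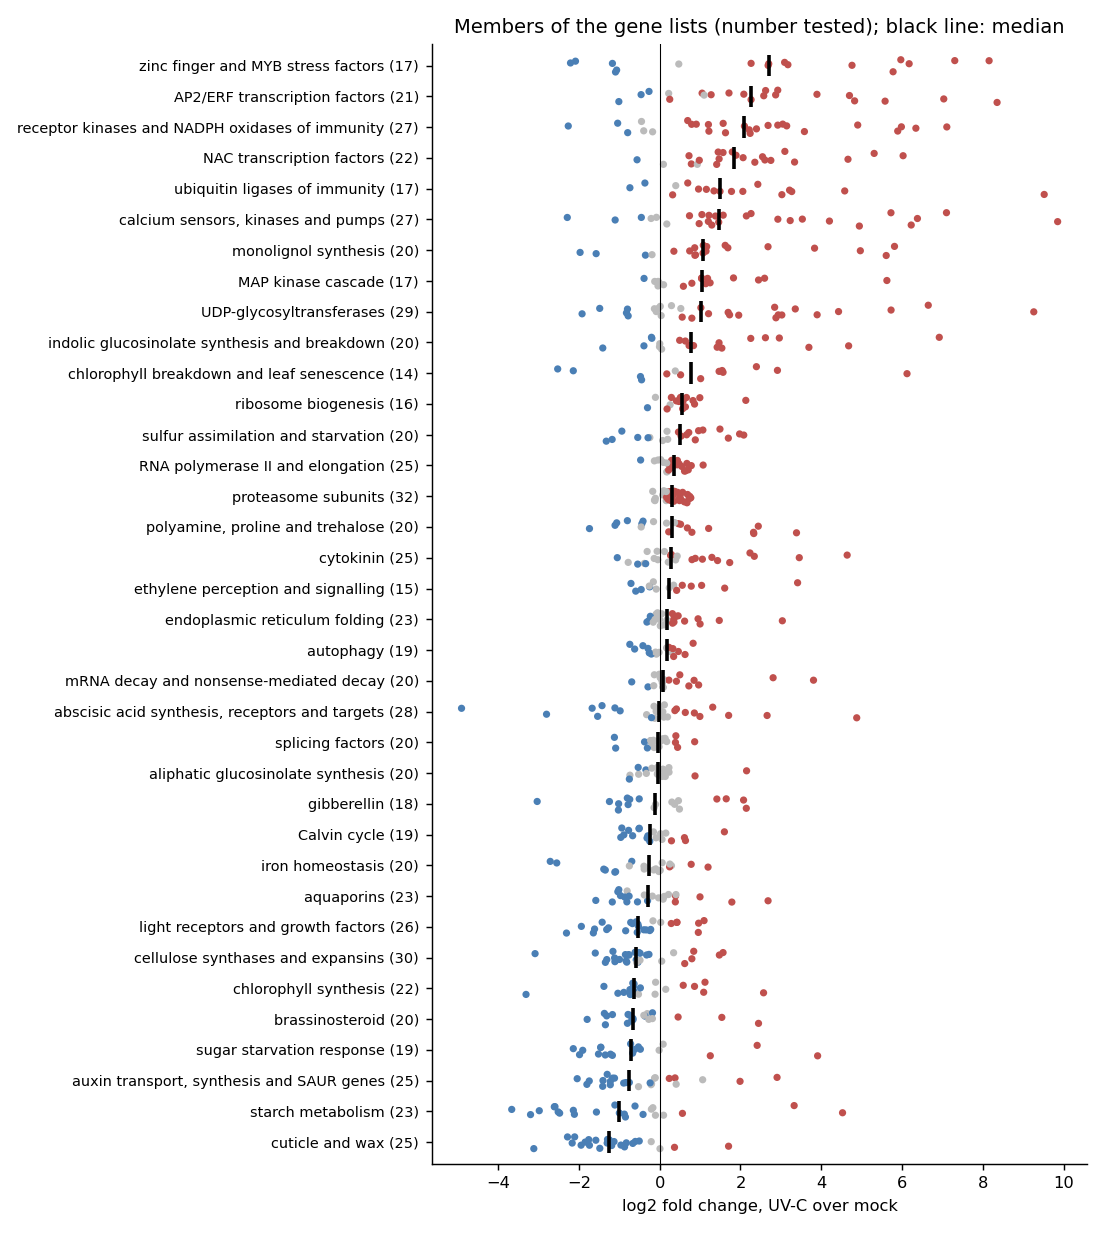
Log2 fold change of each tested member of 36 gene lists, UV-C over mock, with the number tested in brackets; red points rose, blue points fell, grey points did neither, and black lines are the medians. Medians run from 2.6998 for the zinc finger and MYB stress factors to -1.25 for cuticle and wax genes.

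Defence compounds made from tryptophan and phenylalanine were served by rising genes. CYP79B2 (AT4G39950), the enzyme that commits tryptophan to indole glucosinolates and camalexin, rose from 18.03, 15.997 and 14.4 to 419, 401 and 421 CPM (log2 4.68 ± 0.10, adjusted p 3.61e-10). MYB122, an activator of that route, rose from 0.260, 0.115 and 0.0837 to 19.9, 19.96 and 18.2 CPM. Its better known relative MYB34 rose by 0.84 ± 0.21. Of 20 genes for synthesis and breakdown of indole glucosinolates 13 rose and 4 fell, with a median of 0.78. The fallen ones included ESP and NSP5, specifier proteins that set the breakdown products, and for ESP the call was lost in some alternatives. Genes of the aliphatic branch, made from methionine, did not share this: 2 of 20 rose and 3 fell. The 2 were SOT17 and SUR1, and SUR1 also serves the indole branch. After zeocin 14 of these 20 aliphatic genes fell, where 15% of all loci tested in that experiment rose and 12% fell. By the interaction test 12 had a response lower to zeocin than to UV-C, as had 23.4% of all genes tested.

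Lignin monomer synthesis rose in 16 of 20 genes and fell in 3 (median 1.08). CCR2 (AT1G80820), the cinnamoyl-CoA reductase linked to defence, rose from 1.56, 0.719 and 2.18 to 84.2, 83.2 and 85.2 CPM. HCT and CYP98A3, which build the caffeoyl unit, rose from 58.9 ± 2.38 to 109 ± 2.66 CPM and from 29.01 ± 2.81 to 64.2 ± 2.73 CPM. The alcohol dehydrogenase genes split: CAD8 rose by 5.61, while CAD9 and its relative CAD7 fell by 1.97 and 1.57. CAD7 and CAD8 are neighbours and near relatives, so fragments shared by them would not have been counted. In the interaction test 15 of the 20 lignin genes had a higher response to UV-C and 2 a lower one, against 23.4% and 23.8% of all genes. Among UDP-glycosyltransferases, which attach sugars to hormones and defence compounds, 17 of 29 rose and 5 fell (median 1.02). UGT74E2, which acts on the auxin indole-3-butyric acid, rose from 1.82, 0.949 and 1.87 to 153, 156 and 161 CPM. Of 20 genes for sulfur uptake and use 11 rose and 5 fell (median 0.50). APR1, which reduces activated sulfate, rose from 13.1, 18.2 and 15.3 to 54.2, 48.5 and 48.3 CPM, whereas APR2 stood at 40.8 ± 6.23 and 42.9 ± 3.06 CPM (adjusted p 0.596). The locus of APR1 covers 25% of the gene.

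The machinery of protein quality control shifted by smaller amounts. Of 32 proteasome subunit genes 24 rose and the other 8 did not pass, with a median of 0.31 and a highest value of 0.77; under upper-quartile scaling 17 rose and 4 fell. RPT1A, an ATPase of the cap, rose from 67.3, 69.5 and 76.3 to 119, 128 and 116 CPM. RPN1A, the large scaffold of the cap, had 85.6 ± 5.36 and 78.9 ± 1.31 CPM (adjusted p 0.169). Proteasome genes also rose after zeocin, 21 of 32 by the same rule, where 15% of all loci tested in that experiment rose. For the endoplasmic reticulum, 11 of 23 folding genes rose and 3 fell (median 0.18). The transcription factor gene bZIP60, the target of the unfolded protein sensor IRE1, rose from 19.1, 15.1 and 23.4 to 146, 168 and 160 CPM. The chaperone genes BIP1 and BIP2, which share much of their sequence, rose only by 0.35 ± 0.09 and 0.46 ± 0.07, and the disulfide isomerase genes PDIL1-1 and PDIL1-2 fell by 0.32 and 0.27 on the log2 scale. Of 17 ubiquitin ligases and related regulators of immunity 14 rose and 2 fell (median 1.49). The 2 largest rises in that list were of BAP1 and BAP2, which are not ligases but membrane-binding suppressors of cell death. BAP2 (AT2G45760) rose from 0.0520, 0.0288 and 0.0558 to 35.6, 36.6 and 37.6 CPM. Autophagy genes were divided, with 6 of 19 up and 6 down. ATG8B and ATG12A rose by 0.83 and 0.63, and ATG8F and ATG8D fell by 0.74 and 0.62 on the log2 scale.

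Genes for the waxy surface of the shoot had the lowest of the 36 list medians. Of 25 cuticle and wax genes 21 fell and 2 rose, and the median log2 change was -1.25. CER6 (AT1G68530), the condensing enzyme for the very long chains of stem and leaf wax, fell from 151, 154 and 162 to 34.4, 31.1 and 30.3 CPM (log2 -2.28 ± 0.08, adjusted p 4.35e-09). KCS8, of the same enzyme family, fell from 88.5, 117 and 102 to 13.02, 10.8 and 11.5 CPM. ABCG11, which exports wax and cutin lipids, fell by 1.76. The risen members were KCS2 (log2 1.70 ± 0.39) and KCS1 (0.37 ± 0.14), and the call of KCS1 was lost under upper-quartile scaling with an adjusted p of 0.124. In the interaction test 16 of the genes had a lower response to UV-C than to zeocin and 1 a higher one. Of all genes in that test 23.8% were lower and 23.4% higher. Guard cell markers moved beside this list: 6 of 9 fell, among them ALMT12 (from 4.04 ± 0.269 to 0.804 ± 0.165 CPM) and KAT1, while GORK, TGG1 and OST1 did not pass. Their summed level was 543 to 586 CPM in mock and 533 to 616 CPM in UV-C libraries, nearly all of it TGG1. The other 8 markers summed to 27.1 to 28.7 CPM in mock and 12.2 to 15.3 CPM in UV-C libraries, and the groups did not overlap. Trichome markers were mixed, and only 4 were tested. GL2 fell by 1.53 ± 0.19 on the log2 scale, CPC and TTG1 rose by 1.31 ± 0.39 and 0.25 ± 0.10, and EGL3 did not pass. The call of TTG1 was lost in 7 alternatives and that of CPC in 1. The part of guard cells in the cuticle result was not tested.

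Genes of wall growth and of growth hormones also fell more often than they rose. Of 30 cellulose synthase, expansin and related wall genes 21 fell and 5 rose (median -0.60). CESA1 and CESA3, subunits of the primary wall synthase, fell from 163 ± 5.61 to 92.8 ± 1.61 CPM and from 292 ± 8.78 to 164 ± 5.32 CPM. EXPA16 fell by 3.09 ± 0.58, whereas EXPA10, an expansin of leaf growth, and EXPA1 rose by 1.57 and 1.48. Of 25 auxin transport, synthesis and SAUR genes 14 fell and 4 rose (median -0.75). SAUR50 fell from 12.3, 13.9 and 15.6 to 4.09, 2.99 and 3.07 CPM. PID, the kinase that steers auxin carriers, rose from 1.53, 1.61 and 1.20 to 9.77, 11.1 and 11.8 CPM. Of 20 brassinosteroid genes 13 fell and 3 rose (median -0.66). DWF4 and CPD, enzymes of brassinosteroid synthesis, fell by 1.17 ± 0.16 and 1.31 ± 0.09.

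Other hormone groups were mixed. Of 18 gibberellin genes 8 fell and 4 rose. GASA14 (AT5G14920) fell from 33.3, 47.0 and 31.3 to 4.73, 4.90 and 3.96 CPM. GA2OX6, which inactivates gibberellin, rose by 2.14, and the growth repressor gene GAI fell by 1.24 while its relative RGL2 rose by 2.08. Of 28 abscisic acid genes 9 rose and 8 fell. RD29A (AT5G52310, also LTI78), a target of drought and cold signals, fell from 42.4, 81.0 and 62.3 to 2.04, 2.02 and 2.11 CPM, and RAB18 fell by 2.80 on the log2 scale. NCED3, the committed enzyme of abscisic acid synthesis, was at the edge (0.41 ± 0.16, adjusted p 0.0464), and 8 alternatives lost the call. CYP707A1, which breaks the hormone down, rose from 1.79, 1.55 and 2.29 to 14.6, 9.66 and 11.4 CPM. Of 15 ethylene genes 6 rose and 4 fell, with the receptor gene ETR2 up by 1.61 ± 0.12 and the factor gene EIL1 at -0.71 ± 0.09. Of 25 cytokinin genes 12 rose and 3 fell (median 0.29), among the risen the locus that holds RR3, which is described with the 7SL-like loci. Of 20 genes for polyamines, proline and trehalose 10 rose and 6 fell (median 0.30), and ADC1, the first enzyme of polyamine synthesis from arginine, rose from 23.1, 20.1 and 20.98 to 117, 124 and 107 CPM. Of 20 iron genes 7 fell and 3 rose (median -0.27), and the iron-deficiency factor gene BHLH101 fell from 2.99, 3.02 and 4.41 to 0.379, 0.800 and 0.384 CPM.

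Of 26 genes of light receptors and their growth factors 18 fell and 6 rose (median -0.53). PKS1, which binds phytochrome, fell from 21.2, 23.6 and 26.03 to 4.43, 5.08 and 4.76 CPM. The blue light receptor gene PHOT1 fell by 1.64 and the growth factor gene PIF4 by 1.43. The phytochrome genes parted, with PHYA at -0.39 ± 0.10 and PHYB at 0.42 ± 0.09. SPA1 and SPA3, partners of the repressor COP1, rose by 0.96 and 1.10. Of 23 water channel genes 10 fell and 5 rose (median -0.30). TIP1;2, of the vacuolar membrane, fell from 754, 727 and 758 to 252, 242 and 254 CPM, whereas PIP2;3 rose from 7.96, 6.65 and 10.13 to 32.02, 28.6 and 24.8 CPM. PIP2;3 has a near-identical neighbour, so its value is uncertain.

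Starch genes fell on the side of breakdown and on that of synthesis. SEX1 (AT1G10760), the dikinase that opens starch granules to breakdown, fell from 412, 417 and 373 to 31.1, 32.02 and 31.6 CPM (log2 -3.66 ± 0.08, adjusted p 3.71e-10). DPE1, which rearranges the glucans released, fell from 47.4, 47.0 and 43.4 to 4.88, 4.45 and 5.69 CPM. The synthase gene SS4, which starts granules, fell by 2.61. In all, 16 of 23 starch genes fell and 3 rose, with a median of -0.9996. The risen genes were BAM1 (log2 0.56), BAM5, and GBSS1 (AT1G32900), the granule-bound synthase of amylose, which rose from 2.65, 4.52 and 3.49 to 39.2, 37.3 and 30.3 CPM. Of 19 genes listed for sugar starvation, its signalling as well as its response, 14 fell and 3 rose (median -0.72). ASN1, asparagine synthetase, was at 118, 130 and 236 CPM in mock and 26.4, 36.2 and 66.6 CPM in UV-C libraries, while bZIP11, whose translation sucrose represses, rose by 2.41 ± 0.10.

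Chlorophyll synthesis genes moved both ways, more of them down. PORB (AT4G27440), the light-dependent protochlorophyllide reductase, fell from 713, 924 and 753 to 83.1, 71.4 and 86.4 CPM (log2 -3.31 ± 0.12). CHLI2, a subunit of magnesium chelatase, fell by 1.38 ± 0.07. HEMA1 and HEMA2, for the first committed step, rose from 94.5 ± 13.2 to 201 ± 5.34 CPM and from 15.2 ± 0.526 to 90.1 ± 4.69 CPM, and CAO, which makes chlorophyll b, rose by 1.12 ± 0.13. Of 22 genes tested 13 fell and 5 rose (median -0.64). On the side of breakdown and leaf senescence 9 of 14 rose and 4 fell (median 0.77). NYC1, the first enzyme of chlorophyll b breakdown, fell from 147, 125 and 103 to 22.7, 22.4 and 19.8 CPM, and NYE1, which removes the magnesium, rose by 0.52 ± 0.12. In the Calvin cycle 10 of 19 fell and 4 rose (median -0.25). RBCS1A, the main small subunit of Rubisco, fell by 0.77 ± 0.07, while FBA1, a chloroplast aldolase, rose from 211, 192 and 192 to 600, 618 and 588 CPM. The summed level of mesophyll markers was 4792 to 5343 CPM in mock and 4376 to 4551 CPM in UV-C libraries, with 5 of 9 risen and 3 fallen; PORB is among them. Without RBCS3B, the most abundant of them, the sums were 3049 to 3489 and 3132 to 3202 CPM and overlapped. Their part in these results was not tested.

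Of the transcripts made inside the chloroplast, those of psbA held their share of all counts while most other loci fell. psbA, for the D1 protein of photosystem II that light damages and the cell replaces, took 33.6%, 30.3% and 31.5% of all counts in mock and 30.7%, 33.98% and 32.4% in UV-C libraries. The groups overlapped. Its log2 change was 0.23 ± 0.09 with an adjusted p of 0.0488, and the call was lost under upper-quartile scaling, with no filter, with a replicate block, and in 5 of the 6 fits that left out 1 library. The other plastid loci together took 13.2%, 14.6% and 12.7% in mock and 6.24%, 6.57% and 5.91% in UV-C libraries. Here the groups did not overlap, and the exact two-sided permutation test gave 0.1, the smallest p that 3 against 3 allows (0.125 after adjustment over 10 make-up measures).

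Of 15 plastid loci tested 10 fell and psbA alone rose. The locus of psaA and psaB, the core of photosystem I, with rps14, ycf3 and rps4 fell from 36671, 43852 and 35543 to 19906, 20608 and 19144 CPM (log2 -0.96 ± 0.09). The locus of psbB, psbT, psbH, petB and petD, for photosystem II and the cytochrome complex, fell by 1.19 ± 0.09. The largest fall was of psbZ, from 1907, 2081 and 1589 to 697, 731 and 738 CPM (log2 -1.36 ± 0.10). The ATP synthase loci of atpA, atpF and atpH and of atpE and atpB fell by 0.99 and 0.83, and the long locus from ndhD to ycf1 by 0.90. Ribosomal protein genes rpl22, rps19, rpl2 and rpl23 fell as 1 locus by 0.94. Loci that did not pass were petN (-0.18 ± 0.11), trnV (-0.16 ± 0.08), clpP (-0.17 ± 0.07, adjusted p 0.05001) and rpl32 (-0.04 ± 0.10). Within plastid counts alone, psbA went from 70.1% to 83.8%. A plastid locus here can join several operons, because the assembly did so.

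**Figure D3:**
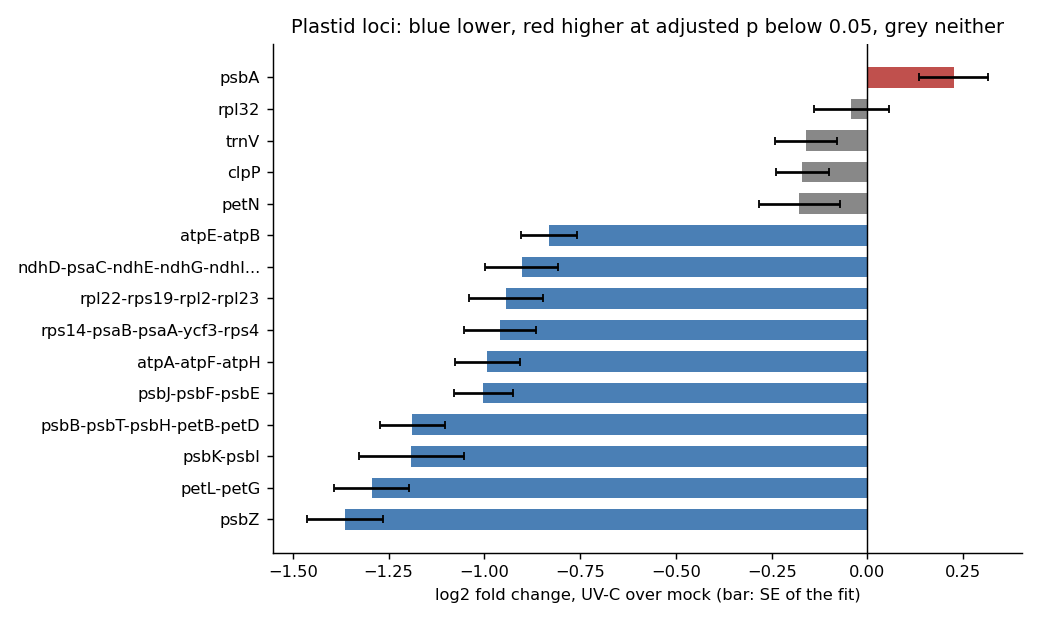
Log2 fold change of the 15 plastid loci tested, UV-C over mock, with the standard error of the fit; names give the genes each locus touches in order. The 10 blue loci fell by 0.83 to 1.36, 4 grey loci did not pass, and psbA, in red, stood at 0.23 with a call that most leave-one-out fits lost.

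Most listed genes of RNA polymerase II, its elongation factors and ribosome biogenesis rose, with small medians. Of 25 genes of RNA polymerase II and its elongation factors 17 rose and 1, ELF8, fell (median 0.36). NRPB1, the largest subunit and the one whose stalling starts transcription-coupled repair, rose from 78.1, 90.5 and 73.2 to 144, 144 and 128 CPM. NRPB4 rose from 12.2 ± 0.918 to 25.6 ± 0.246 CPM. Of 16 ribosome biogenesis genes 13 rose and 1 fell (median 0.54). In the interaction test 14 of the 16 had a higher response to UV-C than to zeocin, against 23.4% of all genes tested. After zeocin 5 of the 16 fell and 0 rose, against 12% and 15% of all loci, so part of this difference lies in the zeocin response. FIB1 and FIB2, fibrillarins that methylate ribosomal RNA, rose by 0.66 ± 0.07 and 0.82 ± 0.14, and the growth kinase gene TOR fell by 0.30. The nucleolin genes differed: NUC-L2 rose by 2.13 ± 0.45, from a locus over 25.4% of the gene, and NUC1 did not pass (-0.11 ± 0.09). Splicing factor genes were divided, with 4 of 20 risen and 5 fallen; under upper-quartile scaling 9 fell. RS40 fell from 38.5, 41.9 and 40.8 to 18.3, 18.04 and 20.6 CPM. In mRNA decay the deadenylase genes CAF1a and CAF1b, which shorten poly(A) tails, rose from 9.28 ± 2.16 to 65.1 ± 3.31 CPM and from 2.16 ± 0.249 to 30.3 ± 1.997 CPM, while the decapping gene DCP2 fell by 0.69.

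Of the 10 measures of library make-up, the largest difference in percentage points was in loci that resemble the gene of 7SL RNA, the RNA of the signal recognition particle, which guides ribosomes to the endoplasmic reticulum. The search began from the assembled locus on the strand opposite to the annotated AT7SL-1, and 7 loci aligned to it over at least 150 bases. Together they took 4.62%, 4.33% and 4.49% of all counts in mock and 15.2%, 12.03% and 15.9% in UV-C libraries. The groups did not overlap (exact two-sided permutation p 0.1, the smallest possible, 0.125 adjusted over 10 measures). A locus without a single gene name on chromosome 1, which touches AT1G05163 and AT1G15405, rose from 16080, 14797 and 13146 to 64069, 48475 and 68219 CPM (log2 2.04 ± 0.14). AT4G04595 and AT2G31141 rose by 2.09 ± 0.13 and 1.99 ± 0.11, and the locus opposite AT7SL-1 by 1.64 ± 0.12. The locus that holds RR3, a cytokinin response regulator, rose from 18682, 16613 and 17366 to 60735, 46658 and 67728 CPM, but its last exon aligns to the 7SL-like locus over 252 bases at 71.4% identity. Its counts therefore cannot be read as those of the regulator gene. The name 7SL-like rests on these letters, and the RNA itself was not identified.

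A 60-base stretch of each of the 5 abundant loci is shown, because their shared letters are what ties them together. They were read from RefSeq TAIR10.1 on the strand of the locus, 5′ to 3′. Capitals mark the 42 positions at which all 7 loci have the same base. The stretches lie at chr2:17224693-17224752 (+ strand, locus of RR3), chr1:5297940-5297999 (- strand, locus touching AT1G05163 and AT1G15405), chr4:1318943-1319002 (- strand, opposite AT7SL-1), chr4:1476466-1476525 (+ strand, AT4G04595) and chr2:13271922-13271981 (- strand, AT2G31141).
locus of RR3: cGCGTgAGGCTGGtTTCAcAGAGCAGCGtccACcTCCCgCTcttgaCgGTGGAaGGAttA
locus touching AT1G05163 and AT1G15405: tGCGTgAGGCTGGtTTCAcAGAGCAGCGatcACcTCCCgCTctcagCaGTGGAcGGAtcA
locus opposite AT7SL-1: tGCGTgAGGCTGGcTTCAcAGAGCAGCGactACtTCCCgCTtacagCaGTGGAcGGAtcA
AT4G04595: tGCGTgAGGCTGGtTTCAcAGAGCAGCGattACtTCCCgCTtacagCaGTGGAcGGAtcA
AT2G31141: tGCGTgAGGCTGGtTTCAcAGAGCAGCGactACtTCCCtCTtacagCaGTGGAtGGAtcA

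Loci of ribosomal DNA and genes of small nuclear and nucleolar RNAs also rose, whereas other classes without a protein code were mixed. Of 78 genes annotated as ncRNA 24 rose and 19 fell (median 0.04), and of 122 lncRNA genes 54 rose and 27 fell (median 0.32). AT3G41761, at the ribosomal DNA of chromosome 3 (chr3:14194269-14205200), rose from 94.4, 90.4 and 86.5 to 8413, 6553 and 7927 CPM (log2 6.40 ± 0.12). The locus at the ribosomal DNA of chromosome 2 (chr2:1871-5927) rose from 59.8, 74.3 and 59.9 to 1069, 785 and 990 CPM (log2 3.87 ± 0.14). These values come from libraries depleted of ribosomal RNA, and differences in depletion between the groups were not tested. All 11 small nuclear RNA genes tested rose, with a median of 1.46, and so did the 14 small nucleolar RNA genes tested of 15, with 1.38. The annotated gene is 33.2% to 100% of the small nuclear RNA loci and 5.36% to 100% of the small nucleolar RNA loci. The rest of each is flanking sequence, so these values are not levels of the small RNAs alone. U1.5 (AT1G08115), of the spliceosome, rose from 3040, 2632 and 2127 to 5248, 4657 and 6035 CPM, and the nucleolar U3B from 382, 435 and 372 to 1214, 797 and 1182 CPM. Of 52 loci over nuclear tRNA genes only 19 had enough counts to be tested. These had 0 to 10 counts in the whole mock group and 33 to 287 in the UV-C group, so they entered the test through the UV-C libraries, and their number that rose is no result about tRNA loci. The tRNA itself is 10.4% to 29.5% of these loci, and most of each is flanking sequence. AT2G36600 went from 0.0520, 0 and 0.0279 to 3.26, 3.72 and 3.61 CPM, the highest of the 19 after UV-C.

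**Figure D4:**
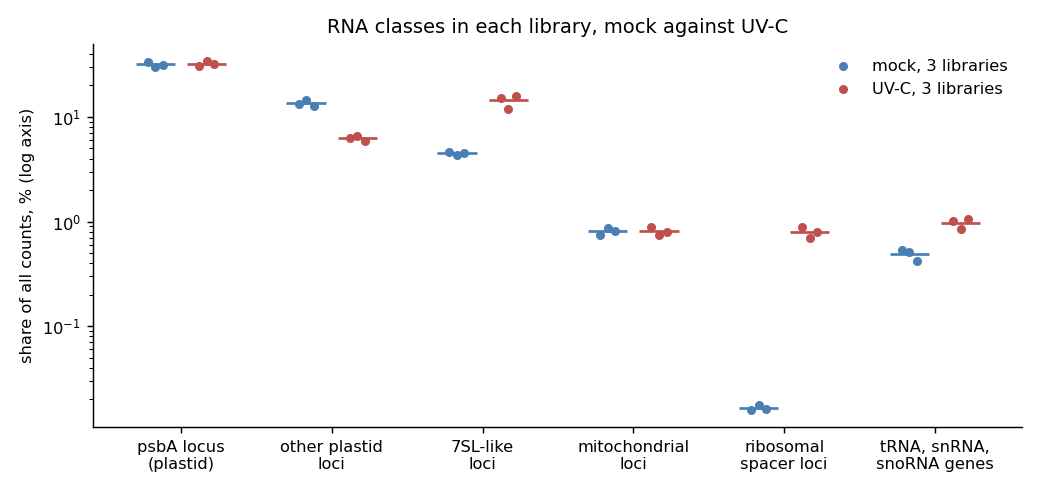
Share of all counts taken by 6 classes of RNA in each library, in percent on a log axis; blue points are the 3 mock libraries, red points the 3 UV-C libraries, and lines their means. The groups overlap for psbA and for mitochondrial loci and are apart for the other 4 classes, of which plastid loci other than psbA are lower and 3 are higher after UV-C.

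Genes for microRNA precursors fell more often than they rose. Of 32 such genes tested 15 fell and 7 rose, with a median of -0.76; those named here were chosen after their values were seen. MIR167d and MIR167a, whose product targets auxin response factors, fell from 5.12, 5.15 and 4.88 to 0.795, 0.765 and 0.845 CPM and from 4.97, 4.57 and 4.13 to 1.10, 0.800 and 0.615 CPM. MIR156a and MIR156c, whose product holds back SPL factors in the juvenile phase, fell by 2.19 ± 0.26 and 1.36 ± 0.16. MIR171b and MIR171a fell by 2.80 and 2.01. The strongest rise was of MIR168b, whose product targets ARGONAUTE1, from 0.156, 0.144 and 0.167 to 4.35, 4.62 and 3.30 CPM (log2 4.68 ± 0.26). MIR168a, which gives the same family of microRNA, had 2.06 ± 0.518 and 1.96 ± 0.407 CPM (adjusted p 0.797). The loci are long primary transcripts, of which the annotated precursor is 3.92% to 30.2%, and mature microRNAs were not measured.

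The direction of change followed the length of the gene. Photoproducts stall polymerases within genes, which makes span a property often examined after UV. Of the 1701 protein-coding genes in the shortest 10% by genomic span, up to 1258 bases, 44.4% rose and 26.7% fell, and the median log2 change was 0.30. In the longest 10%, from 4721 bases, 21.2% rose and 37.8% fell, and the median was -0.13. Between these ends the share of risen genes fell from each of the 10 length classes to the next except at the fifth, the sixth and the ninth, and the share of fallen genes climbed except at the second. The longest 10% together took 10.3%, 11.03% and 10.6% of nuclear counts in mock and 7.53%, 8.37% and 7.06% in UV-C libraries, and the groups did not overlap. Nuclear counts include the 7SL-like loci, whose mean share of them went from 8.32% in mock to 23.7% in UV-C libraries. The shares of all other nuclear loci shrink with that rise, and the share of the longest genes without the 7SL-like loci was not computed. Short genes had lower levels than long ones, so the ends were also compared within 4 equal classes of the mean level. In the lowest class the median was 0.43 for the shortest 10% and -0.05 for the longest, and in the highest class 0.19 and -0.13. Genes silent in mock seedlings pass the filter through the UV-C libraries alone and can only rise. Classes of the mean level do not remove such genes, and their number by length was not counted. The median mock level was 2.37 CPM in the shortest 10% and 18.4 CPM in the longest. Exon number moved with span. Genes of 1 exon had a median of 0.31 and genes of 12 or more exons of -0.16, and within the shortest 10% it was 0.49 for 1 exon and 0.14 for several. Where a gene was held by several loci, which was so for 983 genes, the median difference between the log2 change at the 5′ and at the 3′ locus was -0.07. The 5′ to 3′ ratio of the libraries overlapped between groups (exact two-sided permutation p 0.3). These medians describe genes, which are not replicates, and no cause was tested.

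**Figure D5:**
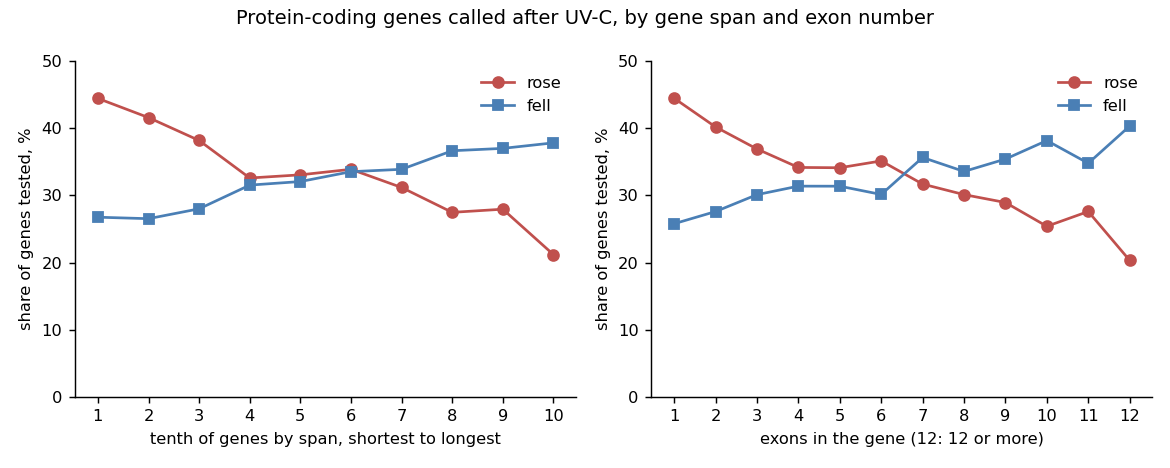
Share of protein-coding genes that rose (red) or fell (blue) after UV-C, in percent of those tested, by class of genomic span, 10% of genes each (left) and by exon number (right). The red line falls from 44.4% to 21.2% and the blue line climbs from 26.7% to 37.8% from the shortest to the longest genes.

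Markers of cell types were read to see what tissue the groups held. Mesophyll markers, as given above, were present in both groups. Root epidermis markers summed to 7.85 to 17.1 CPM in mock and 6.36 to 9.99 CPM in UV-C libraries, with 2 of 8 fallen. Vascular markers summed to 105 to 136 and 123 to 146 CPM, and trichome markers to 17.6 to 19.9 and 18.7 to 21.8 CPM, so these groups overlapped. Single markers still moved, and of 11 vascular markers tested 3 rose and 1 fell. Most of the trichome sum was TTG1, and the other 6 markers summed to 3.67 to 5.16 and 2.82 to 3.96 CPM. Seed markers were near 0: 2 of 13 had a locus, both without a count in mock libraries and with a sum of 0.884 to 1.70 CPM after UV-C. Of 8 pollen and flower markers 2 had a locus. SEP3 fell from 2.08, 1.70 and 2.48 to 0.795, 0.556 and 1.42 CPM (log2 -1.18 ± 0.32), and AG had at most 0.151 CPM in any library.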

How the data were processed

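Values were the raw counts of fragments per assembled locus that the authors deposited for the UV-C experiment. By the tools listed in the submitters' processing notes, they were made from reads trimmed with Trim Galore 0.11.8, aligned with STAR 2.7.1a to TAIR10, assembled with StringTie 2.1.5 and counted with featureCounts of Subread 2.0.1; the counting command in the file headers has no option for fragments placed at several loci, which are then left out, so near-identical genes are undercounted. Of the assembled introns, 99.2% matched the reference annotation. Groups came from the sample titles. Counts were tested with edgeR 4.0.16 in R 4.3.3 (quasi-likelihood, TMM factors, default filter, Benjamini-Hochberg over all loci tested, adjusted p below 0.05), 3 UV-C against 3 mock libraries; tested on simulated data, it called 92% of loci changed by a log2 of -1. The responses to UV-C and zeocin were compared by the interaction term of 1 joint fit. Shares per library were compared with exact permutation tests. Gene lists, members and tests were chosen with earlier results of these data known. Genes to name were drawn from the 12 largest rises and falls and 6 largest gains and losses in CPM among 6115 loci that hold 1 gene (80% of it, 5 CPM, groups apart). From each list they were drawn from the 2 largest rises and falls and the first 2 listed. Not all of these are printed, so a named gene need not be the extreme of its list. Further members were named after their values were seen. Of 959 listed names 931 matched a gene. 7SL-like loci were found with blastn 2.17.0. Alternatives were DESeq2 1.42.0, other factors and filters, a replicate block, and leaving out each library. Intervals cover counting error only. Mitochondrial loci were summed as a class and not assigned to genes.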

Additional observations from a re-analysis of the deposited data

How the results depend on the processing

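No called gene among the 251 named results changed direction in any alternative. With DESeq2, 247 of the 251 stayed on their side of the threshold, with scaling from nuclear loci alone 251, with a replicate block 249 and with upper-quartile factors 243. NCED3 lost its call in 8 alternatives (adjusted p 0.0505 to 0.227), and MKP2 in 6, KCS1 in 5 and ESP in 3. Leaving out 1 library gave 6096 to 6360 loci higher and 5548 to 5811 lower, and 0 to 1 plastid loci higher. That count, which is psbA, was also 0 with no filter, with a replicate block and with upper-quartile factors. Upper-quartile factors moved the median of all loci to -0.10, that of the shortest 10% of genes to 0.19 and that of the longest to -0.24, and ranking by exonic length gave 0.195 for the shortest. Medians of the abscisic acid, aliphatic glucosinolate, gibberellin and mRNA decay lists changed sign in some alternatives. Both groups carry replicate numbers 1 to 3, but the deviations of equal numbers correlated across loci at -0.30, -0.02 and 0.16, so the numbers were not taken as pairs. With 3 libraries a group, a permutation test of a share cannot give a p below 0.1.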

Other observations

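One locus of the plastid inverted repeat (positions 134151 to 136150 of the plastid sequence, minus strand), which touches the genes trnA, trnI and that of 16S ribosomal RNA, had 248 CPM in UV-C replicate 2 and at most 0.260 CPM in each of the other 5 libraries. It did not pass the filter on low counts and entered no test.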
